A study of Mus musculus with 8 samples.

Results

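The signaling lymphocytic activation molecule (SLAM) receptors and the adaptors that bind their cytoplasmic tails were followed through RNA-seq of NK cells from lung and spleen. The genes were chosen by name: the receptors *Slamf6*, *Slamf7*, *Cd48*, *Cd84* and *Ly9*, and the SH2 adaptors *Sh2d1a*, *Sh2d1b1* and *Sh2d2a*. All 8 were among the 48321 gene symbols counted, and all 8 passed the filter on low counts that 12595 genes passed. NK cells had been sorted as CD45+ TCRb- NK1.1+ cells from C57/Bl6 mice of genotype *Wt* or KO, and 2 libraries were made for each of the 4 combinations of organ and genotype. KO stands for *Ccl5ΔPE/ΔPE*, a germline deletion of the proximal enhancer of the chemokine gene *Ccl5*, so every cell of these mice carries it. The methods of the study describe its mice as a few months old and of mixed sexes, and it is not stated whether both libraries of a combination were made from different animals.

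Most SLAM receptors bind their own kind on a neighbouring cell, whereas CD48 is the ligand of CD244 and is anchored to the membrane without a signaling tail. The tails of the other receptors carry tyrosine motifs that are bound by SAP, the product of *Sh2d1a*, and by EAT2, the product of *Sh2d1b1*. SAP brings the kinase FYN to the receptor, EAT2 couples it to phospholipase C gamma, and in NK cells both adaptors turn SLAM receptors toward activation, while receptors without an adaptor can recruit phosphatases and inhibit. *Sh2d2a* encodes TSAd, an adaptor of T and NK cells that binds the kinase LCK.

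In GRCm38, the receptor genes lie side by side on chromosome 1. *Slamf6* occupies chr1:171917515-171953170, *Cd84* chr1:171839697-171890718 and *Cd48* chr1:171682009-171705258 on the plus strand, while *Slamf7* at chr1:171632403-171653035 and *Ly9* at chr1:171588624-171607410 lie on the minus strand. *Sh2d1b1* is on the same chromosome at chr1:170277320-170286769, and *Sh2d2a* lies at chr3:87846755-87855722 and *Sh2d1a* at chrX:42502453-42529330. *Ly9* lies inside *Cd244* (named *Cd244a* in GENCODE) on the other strand, without shared exon bases. The strand setting of the counting is not given in the sources used here, and reads of overlapping genes on opposite strands cannot be told apart without it. *Slamf7* shares 423 exon bases (9.24% of its exons) with the antisense gene *Gm37787*, which held 35.6 to 54.9 CPM (TMM-scaled counts, the level used throughout) in the 8 libraries. *Sh2d1a* shares 1465 exon bases (26.6%) with *Tenm1*, which was listed at 0 reads in 7 libraries and at 7 reads in the deepest.

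The promoters of the receptor and the adaptor with the largest KO effect in lung of their kind, and of a receptor whose KO effect had opposite signs in the organs, are shown from RefSeq (GRCm38.p6), which held 5 of the 8 members. Each run covers 250 bases before to 50 bases after the start on the strand of the gene (the plus strand in all 3), at chr1:171917212-171917511 for *Slamf6*, chr1:170277068-170277367 for *Sh2d1b1* and chr1:171839447-171839746 for *Cd84*. Capitals mark matches on either strand to TGTGGT (RUNX), TGANTCA (AP-1) and CCGGAA (ETS), 3 motifs that were picked after the sequences had been read, and no matches overlap.
Slamf6: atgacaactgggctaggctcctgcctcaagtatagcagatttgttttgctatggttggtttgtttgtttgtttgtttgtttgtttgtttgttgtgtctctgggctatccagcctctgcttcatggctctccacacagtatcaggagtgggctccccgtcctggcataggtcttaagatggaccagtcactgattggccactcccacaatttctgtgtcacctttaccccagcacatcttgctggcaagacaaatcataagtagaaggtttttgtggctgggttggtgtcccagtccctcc
Sh2d1b1: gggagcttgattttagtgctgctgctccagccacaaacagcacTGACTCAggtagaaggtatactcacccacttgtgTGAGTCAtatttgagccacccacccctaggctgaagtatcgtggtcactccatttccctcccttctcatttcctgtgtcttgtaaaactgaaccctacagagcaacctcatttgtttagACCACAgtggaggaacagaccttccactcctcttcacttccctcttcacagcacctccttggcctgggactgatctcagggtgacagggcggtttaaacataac
Cd84: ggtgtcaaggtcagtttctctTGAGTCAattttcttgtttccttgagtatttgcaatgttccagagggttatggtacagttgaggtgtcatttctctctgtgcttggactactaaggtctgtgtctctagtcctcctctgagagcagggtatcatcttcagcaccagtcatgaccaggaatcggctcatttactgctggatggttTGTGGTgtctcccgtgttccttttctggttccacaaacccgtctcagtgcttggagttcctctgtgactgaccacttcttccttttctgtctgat
The window of *Sh2d1b1* holds a RUNX match that begins 54 bases before the start and AP-1 matches that begin 207 and 173 bases before it. That of *Cd84* holds an AP-1 match 229 bases and a RUNX match 45 bases before the start, and that of *Slamf6* holds no match to these letters. Of 32851 promoter windows of this length, 16.8% hold the RUNX letters, 7.81% the AP-1 letters and 14.9% the ETS letters.

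Between 3132963 and 26482366 reads were counted on genes per library, so that 3 reads, the limit that a count of 0 allows, correspond to 0.115 to 0.978 CPM. Libraries of a group differed by 1.23 to 1.48 times the variance expected from counting, with a common biological coefficient of variation of 2.50%, so adjusted p-values (edgeR's quasi-likelihood test, Benjamini-Hochberg over all genes tested, called at 0.05) measure only the spread between these libraries, which may be technical. An exact test that regroups 2 against 2 libraries cannot go below p = 0.333. *Ccl5* itself was counted at 19518 and 18350 CPM in the *Wt* libraries of lung and 2992 and 3195 in those of KO, and at 16679 and 15664 against 2676 and 2432 in spleen. Its log2 fold change was -2.61 in lung and -2.67 in spleen. The NK cell genes *Ncr1* and *Klrb1c* stood at 2801 CPM or more in every library. The 10 genes of the NK cell list were not level between the groups. They summed to 50357 to 51736 CPM in lung *Wt* and 39968 to 40442 in lung KO. In spleen they summed to 36950 to 37540 CPM (*Wt*) and 47831 to 50163 (KO). Most of each sum was *Gzma* and *Nkg7*, and the genes of the list did not all follow it. In lung, *Gzma* went from 25399 and 24265 CPM (*Wt*) to 17961 and 18039 (KO), whereas *Itgam* went from 389 and 381 to 423 and 438.

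Per length of exon, *Cd48* was by far the most abundant of the receptors and *Slamf6* the rarest. *Cd48* stood at 534 to 653 CPM per kb and made up 64.6% to 70.9% of the summed CPM per kb of the 5 receptors. *Ly9* followed at 116 to 147 CPM per kb, *Slamf7* at 74.9 to 109 and *Cd84* at 38.9 to 60.2, and these 3 kept that order in every library. *Slamf6* stood at 0.478 to 6.12 CPM per kb, or 0.0559% to 0.665% of the sum. Of the adaptors, *Sh2d2a* was the highest in lung, at 92.3 to 132 CPM per kb, and *Sh2d1a* exceeded *Sh2d1b1* in every library.

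**Figure D1:**
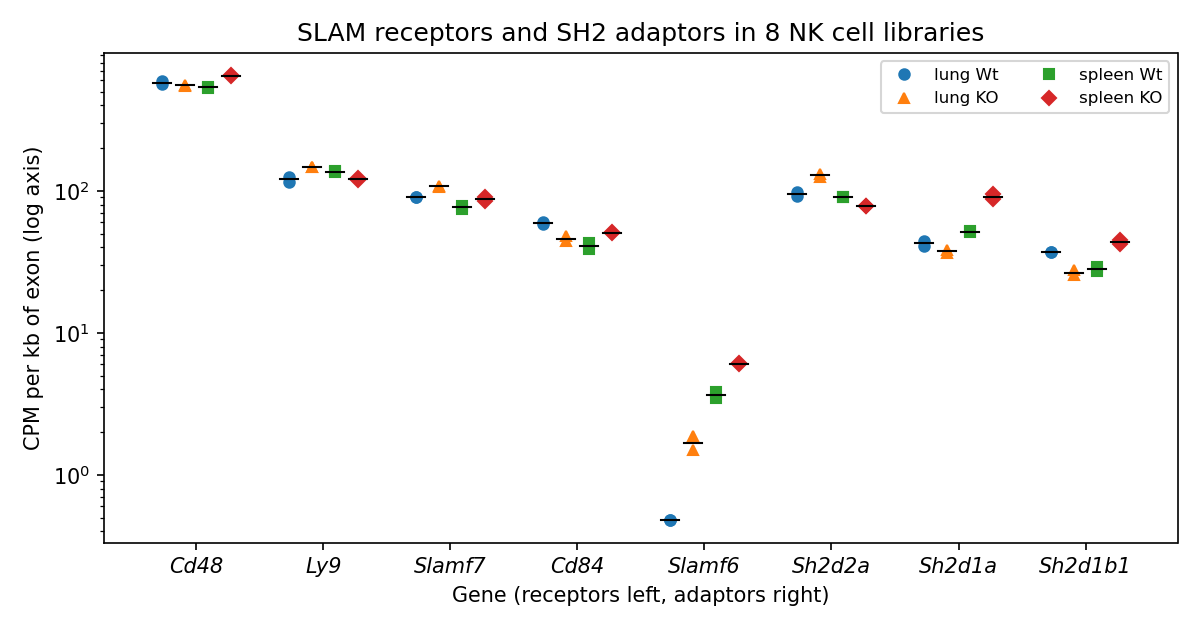
CPM per kb of exon on a log axis for the 5 receptors (left) and 3 adaptors (right). Points are single libraries, coloured and shaped by organ and genotype, and bars are means of 2 libraries; *Slamf6* climbs from 0.478 to 6.12 CPM per kb across the groups while *Cd48* stays between 534 and 653.

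The first comparison asks how loss of the *Ccl5* proximal enhancer changed these genes in lung NK cells. In KO, the receptors *Slamf6*, *Ly9* and *Slamf7* and the adaptor *Sh2d2a* were higher, the receptor *Cd84* and the adaptors *Sh2d1b1* and *Sh2d1a* were lower (the sign of *Sh2d1a* turned with the centred GC offset, a correction for dependence on GC content within each library), and *Cd48* did not pass the test. So 7 of 8 members were called, where 55.6% of all genes tested were called (29.2% higher and 26.4% lower). The median absolute log2 fold change of the members was 0.34, beside 0.36 for all genes tested, and 5.57% of these had a larger absolute change than *Slamf6*.

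*Slamf6*, a receptor also carried by T and B cells, was counted at 5.22 and 5.18 CPM in lung *Wt* (42 and 20 reads), and at 16.2 and 20.3 CPM in lung KO (79 and 149 reads). Both KO libraries lay above both *Wt* libraries, and 76.0% of all genes tested had no overlap between the genotypes in lung. The log2 fold change was 1.83 (SE 0.19, edgeR adjusted p = 1.4e-10), or 3.56-fold. In bulk RNA, a change in the number of cells that carry a transcript and a change in its amount per cell cannot be told apart.

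*Ly9*, a receptor that binds itself between cells, was counted at 384 and 412 CPM in lung *Wt* and 486 and 487 in KO, a log2 fold change of 0.30 (SE 0.04, edgeR adjusted p = 2.0e-07). *Slamf7*, which can signal through EAT2, went from 416 and 414 CPM to 499 and 489, a log2 fold change of 0.25 (SE 0.04, edgeR adjusted p = 4.1e-06). *Cd84*, another receptor that binds itself, went from 378 and 369 CPM to 300 and 277, a log2 fold change of -0.38 (SE 0.05, edgeR adjusted p = 1.6e-08). In all 3 the KO libraries did not overlap with the *Wt* libraries, as for 76.0% of all genes. With the centred GC offset *Cd84* in lung was at -0.17, and with the uncentred one *Ly9* was at 0.16. *Cd48* was counted at 707 and 669 CPM in *Wt* and 665 and 652 in KO. The log2 fold change of *Cd48* was -0.069 with a 95% interval from -0.15 to 0.0098 (edgeR adjusted p = 0.13), and its sign turned with library totals (0.023, not called) and with the centred GC offset (0.15), with which it was called higher in KO. Without the *Wt* replicate 2 library, *Cd48* was at -0.11. Centred means that the correction leaves the mean of all genes in a library in place, and the uncentred form does not.

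Among the adaptors, the KO effect was not of one sign. *Sh2d1b1* (EAT2) was counted at 94.9 and 95.1 CPM in lung *Wt* and 64.9 and 70.1 in KO, a log2 fold change of -0.48 (SE 0.07, edgeR adjusted p = 4.7e-07). *Sh2d1a* (SAP) went from 246 and 227 CPM to 202 and 210, a log2 fold change of -0.21 (SE 0.05, edgeR adjusted p = 0.00095). *Sh2d2a* (TSAd) went the other way, from 548 and 582 CPM to 746 and 786, a log2 fold change of 0.45 (SE 0.04, edgeR adjusted p = 5.6e-12). The fall of *Sh2d1a*, whose exons hold 40.5% GC, was not called with library totals (-0.11) nor without the *Wt* replicate 1 library (-0.14), and the centred GC offset turned its sign (0.058). *Sh2d2a*, with 55.3% GC, was at 0.26 with the centred GC offset and was not called with the uncentred one (0.074, edgeR adjusted p = 0.1).

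In spleen, most members were higher in KO, with the adaptors SAP and EAT2 and the receptor *Slamf6* in front. *Slamf6*, *Slamf7*, *Cd48*, *Cd84*, *Sh2d1a* and *Sh2d1b1* rose and *Ly9* and *Sh2d2a* fell, the sign of *Sh2d2a* turning with the uncentred GC offset. All 8 members were called, where 57.1% of all genes tested were (28.2% higher and 28.9% lower), and their median absolute log2 fold change was 0.28, beside 0.33 for all genes.

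*Sh2d1a* was counted at 288 and 281 CPM in spleen *Wt* and 520 and 483 in KO, a log2 fold change of 0.81 (SE 0.04, edgeR adjusted p = 2.2e-17) or 1.75-fold. *Sh2d1b1* went from 74.4 and 69.2 CPM to 115 and 108, a log2 fold change of 0.62 (SE 0.06, edgeR adjusted p = 2.0e-10). *Slamf6* went from 37.5 and 41.6 CPM to 66.3 and 65.3, a log2 fold change of 0.71 (SE 0.08, edgeR adjusted p = 2.5e-09). The KO libraries of these 3 genes lay clear of the *Wt* libraries, as did those of 73.8% of all genes tested in spleen, and the called rise in each held with either GC offset.

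The other changes in spleen were small. *Cd48* went from 645 and 635 CPM to 776 and 765, a log2 fold change of 0.27 (SE 0.04, edgeR adjusted p = 2.3e-07). *Cd84* went from 244 and 270 CPM to 321 and 318, a log2 fold change of 0.30 (SE 0.05, edgeR adjusted p = 1.9e-06). *Slamf7* went from 343 and 358 CPM to 416 and 391, a log2 fold change of 0.18 (SE 0.04, edgeR adjusted p = 0.00035). None of these 3 overlapped between the genotypes, and neither did 73.8% of all genes. *Ly9* fell from 447 and 457 CPM to 396 and 406 (log2 fold change -0.17, SE 0.04, edgeR adjusted p = 0.00068). *Sh2d2a* fell from 542 and 535 CPM to 464 and 462 (log2 fold change -0.22, SE 0.04, edgeR adjusted p = 2.3e-05). With the centred GC offset, *Slamf7* was at 0.090, and *Cd48* (0.058), *Cd84* (0.093) and *Sh2d2a* (-0.040) were no longer called. With the uncentred one, *Ly9* (-0.084) was not called and *Sh2d2a* turned sign (0.074, not called).

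**Figure D2:**
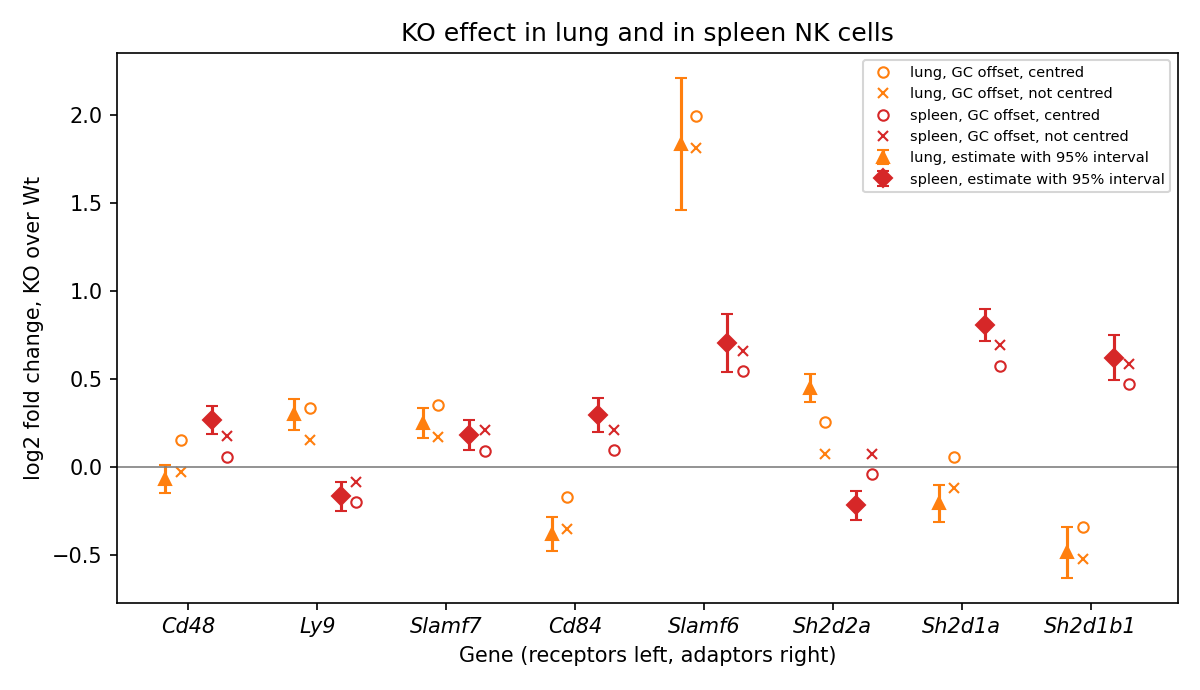
log2 fold change of KO over *Wt* (y) for each receptor and adaptor (x), in lung (triangles) and spleen (diamonds), with 95% intervals. Open circles and crosses give the value after a centred or uncentred GC offset; *Slamf6* is positive in both organs (1.83 and 0.71) under each, whereas the sign of *Cd48* and *Sh2d1a* in lung and of *Sh2d2a* in spleen depends on the form of the offset or its use.

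The KO effect itself was then compared between the organs. It differed for 7 of 8 members, all but *Slamf7*, where 61.6% of all genes tested differed (32.5% with the more positive effect in lung and 29.0% with the more negative). The effect was more positive in lung for *Slamf6*, *Sh2d2a* and *Ly9*, and more negative in lung for *Sh2d1b1*, *Sh2d1a*, *Cd84* and *Cd48*, the last turning sign with the centred GC offset. *Slamf6* rose more in lung, by 1.13 on the log2 scale (SE 0.21, edgeR adjusted p = 1.6e-05). *Sh2d1b1* fell in lung and rose in spleen, a difference of -1.10 (SE 0.10, edgeR adjusted p = 1.5e-12), and so did *Sh2d1a*, with -1.01 (SE 0.07, edgeR adjusted p = 1.9e-15), although its fall in lung rests on the settings named above. *Cd84* also had opposite signs, with a difference of -0.68 (SE 0.07, edgeR adjusted p = 4.5e-11). *Ly9* and *Sh2d2a* rose in lung and fell in spleen, with differences of 0.47 (SE 0.06, edgeR adjusted p = 1.3e-08) and 0.66 (SE 0.06, edgeR adjusted p = 1.1e-12). For *Slamf7* the difference was 0.066 with a 95% interval from -0.054 to 0.19 (edgeR adjusted p = 0.34), and it was called with the centred GC offset (0.26) and with library totals (0.23), while the uncentred offset turned its sign (-0.038, not called). The difference for *Cd48* was -0.34 (SE 0.05, edgeR adjusted p = 1.6e-06) and turned sign with the centred GC offset (0.094, not called). That for *Sh2d2a* was 0.30 with the centred and 0.00017 (not called) with the uncentred offset. The centred offset also cut the differences of *Cd84* to -0.27 and of *Sh2d1a* to -0.52, and the uncentred one that of *Ly9* to 0.24, all still called.

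Neighbours in the gene cluster did not all move the same way. In lung, *Cd84*, which starts at -77.8 kb relative to the start of *Slamf6*, fell while *Slamf6* rose, and *Ly9*, at -310.1 kb, rose while *Cd244*, the gene it lies in, fell. In spleen it was *Ly9* that fell while the other 5 receptor genes tested in the cluster rose. With the centred GC offset, the rises of *Cd48* (0.058) and *Cd84* (0.093) there were not called. With the uncentred one, the fall of *Ly9* (-0.084) was not called.

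**Figure D3:**
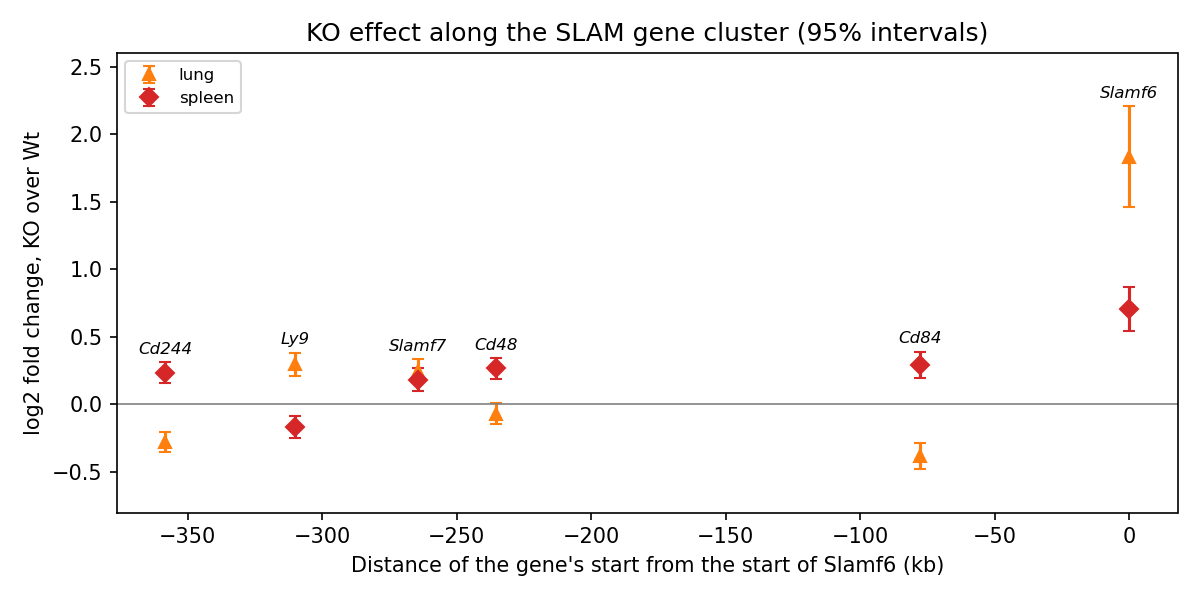
log2 fold change of KO over *Wt* (y, with 95% intervals) against the distance of each gene's start from that of *Slamf6* (x, kb), for the 6 receptor genes of the cluster that were tested. *Slamf6*, at the right end, has the largest value in both organs, and *Cd244*, *Ly9* and *Cd84* have opposite signs in lung and spleen.

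Lung was compared with spleen in each genotype; these contrasts use the same libraries as the KO effects. In *Wt*, 7 of 8 members were called (57.0% of all genes tested, 27.7% higher and 29.3% lower), and in KO all 8 (65.6%, 33.9% higher and 31.7% lower). *Slamf6* was lower in lung in both, by log2 fold changes of -2.94 (SE 0.16, edgeR adjusted p = 1.7e-18) in *Wt* and -1.82 (SE 0.10, edgeR adjusted p = 9.8e-19) in KO, that is 7.69-fold and 3.52-fold lower. The order of its 4 group means was lung *Wt*, lung KO, spleen *Wt* and spleen KO.

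The adaptors differed little between the organs in *Wt* and more in KO. Between lung and spleen, *Sh2d1a* had log2 fold changes of -0.25 (SE 0.05, edgeR adjusted p = 5.5e-05, and -0.50 with the centred GC offset) in *Wt* and -1.26 (SE 0.05, edgeR adjusted p = 9.4e-24) in KO. *Sh2d1b1* was higher in lung in *Wt* (0.42, SE 0.07, edgeR adjusted p = 4.3e-06) and lower in KO (-0.69, SE 0.06, edgeR adjusted p = 8.9e-12). *Sh2d2a* differed by 0.064 in *Wt*, which was not called, turned sign with library totals (-0.041) and was called with the centred (0.22) and uncentred (0.35) GC offsets, and by 0.73 in KO (SE 0.04, edgeR adjusted p = 1.9e-18). Per length of exon, *Sh2d1a* and *Sh2d1b1* together summed to 82.0 and 78.6 CPM per kb (*Wt*) and 62.2 and 65.7 (KO) for lung, and to 81.5 and 78.2 (*Wt*) and 139.8 and 130.1 (KO) for spleen. The ratio of *Sh2d1a* to *Sh2d1b1* was 1.10 to 1.44 in the lung libraries and 1.78 to 2.09 in the spleen libraries.

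Among the other receptors, *Slamf7* was higher in lung in both genotypes (0.24 in *Wt* and 0.31 in KO). *Cd84* was higher in lung in *Wt* (0.53, and 0.34 with the centred GC offset) and lower in KO (-0.15), where either GC offset ended the call (0.072 and -0.094) and the centred one turned the sign, and it was also not called without the lung KO replicate 2 library (-0.088) or the spleen KO replicate 2 library (-0.15). *Ly9* was lower in lung in *Wt* (-0.19) and higher in KO (0.27), and its call in *Wt* was lost without the lung *Wt* replicate 1 library (-0.12) and with the uncentred offset (-0.073). *Cd48* differed by 0.11 in *Wt* and -0.23 in KO, and the centred GC offset gave -0.094 and 0.00083 in their place. In *Wt*, the call for *Cd48* was also lost without the lung *Wt* replicate 1 (0.081) or spleen *Wt* replicate 2 (0.096) library.

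Genes of other lymphocytes also differed between the groups. *Cd79a*, a component of the B cell receptor, stood at 1.30 to 1.84 CPM in lung and 5.22 to 8.58 in spleen. *Ms4a1*, which encodes a surface protein of B cells, was at 0 in both lung *Wt* libraries, where 3 reads correspond to 0.372 and 0.776 CPM. It was at 0.816 to 1.02 CPM in lung KO, and in spleen at 11.7 and 9.11 CPM (*Wt*) and 6.86 and 9.46 CPM (KO). All 8 genes of the B cell list were detected, and their summed level was 297 to 309 CPM in lung *Wt*, 250 to 254 in lung KO, 525 to 536 in spleen *Wt* and 622 to 638 in spleen KO, most of it *Ighm*, which stood at 289 and 303 CPM in lung *Wt* and 241 and 244 in lung KO. The 9 T cell genes summed to 68.0 to 69.7, 48.5 to 51.3, 176 to 179 and 159 to 167 CPM in the same order. Within them *Cd3e* was at 6.35 to 7.71 CPM in lung, and for spleen at 32.0 and 32.5 (*Wt*) and 7.51 and 11.1 (KO). *Cd3d*, *Cd3g* and *Trac* showed no fall of that size. Spleen *Cd3d* stood at 59.2 and 62.3 CPM (*Wt*) against 72.1 and 64.4 (KO). *Cd3g* went from 61.4 and 60.9 CPM to 57.5 and 55.3 there, and *Trac* from 19.0 and 21.3 to 30.0 and 27.5. *Cd8b1* was at 0 in 6 of 8 libraries. The platelet genes summed to 71.2 to 71.9 CPM in lung *Wt*, 41.6 to 51.3 in lung KO, 38.9 to 48.7 in spleen *Wt* and 19.6 to 22.2 in spleen KO, with *Gp9* at 0 throughout. The myeloid list summed to 176 to 193 CPM in all 8 libraries, most of it *Itgax* (125 to 153 CPM), with *Adgre1* at 0 throughout. Its single genes were not all level. *Lyz2* went from 12.2 and 15.8 CPM to 23.5 and 25.2 with the deletion among lung libraries, and spleen libraries held 1.63 to 4.10. *Cd68* (15.7 and 14.2 to 8.39 and 11.2) and *Cd163* (18.0 and 18.4 to 13.5 and 12.0) went the other way in lung. The innate lymphoid list summed to 352 to 438 CPM, most of it *Gata3*, which NK cells also express. The part of such cells in the differences of *Slamf6* or the other members was not tested.

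The gene with a mean log2 CPM above 5 whose pattern over the 8 libraries was most like that of *Slamf6* was *Cd74*, the invariant chain of MHC class II. After centring, the log2 CPM of both differed by 0.193 (root mean square), against a spread of 1.36 in *Slamf6* itself. *Cd74* was counted at 36.2 and 33.4 CPM (*Wt*) and 106 and 96.1 (KO) among the lung libraries, and 289 and 297 (*Wt*) and 421 and 408 (KO) among the spleen ones. Next came *Rrm2*, a subunit of ribonucleotide reductase, at 0.417. The other members varied less, with spreads of 0.104 (*Cd48*) to 0.490 (*Sh2d1a*), and the root mean square differences from the nearest genes were smaller with them: *Cdc5l* and *Ccdc127* for *Cd84* (0.0210 and 0.0476), *Nfatc1* and *Inpp5b* for *Ly9* (0.0208 and 0.0262), *Mrpl3* and *Eif4a2* for *Cd48* (0.0297 and 0.0330), *Rprd2* and *Cmip* for *Slamf7* (0.0440 and 0.060), *Ctla2a* and *Pik3ca* for *Sh2d1a* (0.0469 and 0.0913), *Mrpl46* and *Tonsl* for *Sh2d1b1* (0.0487 and 0.0517), and *Il17ra* and *Man2b1* for *Sh2d2a* (0.0536 and 0.0546). With 5102 or 5103 genes searched and only 4 groups, close matches are common, and these are descriptions.

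**Figure D4:**
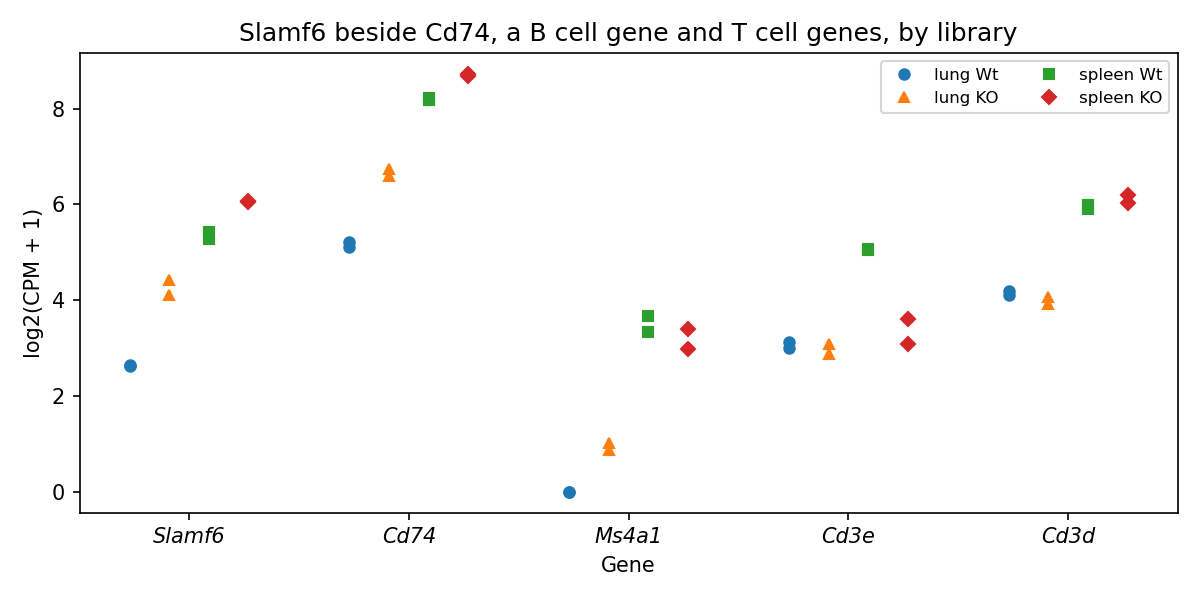
log2(CPM + 1) of *Slamf6*, *Cd74*, the B cell gene *Ms4a1* and the T cell genes *Cd3e* and *Cd3d* (x), with single libraries as points by organ and genotype. *Slamf6* and *Cd74* rise in the same order of groups. *Ms4a1*, 1 of the 8 genes of the B cell list, is at 0 in lung *Wt* and higher in spleen than in lung. The list as a whole summed to 297 to 309 CPM in lung *Wt* and 250 to 254 in lung KO. *Cd3e* is high in spleen *Wt* alone, whereas *Cd3d* is high in spleen of both genotypes.

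The rest of the family was either abundant or close to absent. *Cd244*, the NK cell receptor for CD48, had KO effects of the same signs as *Cd84*, at 831 and 828 CPM against 671 and 695 for *Wt* and KO of lung, and 527 and 532 against 624 in both KO libraries of spleen. Its log2 fold change was -0.28 in lung (SE 0.04, edgeR adjusted p = 6.4e-08) and 0.24 in spleen (SE 0.04, edgeR adjusted p = 2.2e-06). *Cd2*, the relative that also binds CD48, fell in lung from 1722 and 1715 to 1345 and 1371 CPM (log2 fold change -0.34, SE 0.04, edgeR adjusted p = 2.3e-10) and rose in spleen from 1543 and 1489 to 2126 and 2074 (0.47, SE 0.03, edgeR adjusted p = 5.5e-14). *Slamf8* was at 0 in every library, *Slamf1* reached 5 reads and *Slamf9* 4 reads. *Sh2d1b2*, a close paralog of *Sh2d1b1* between which short reads could be split, held 20 and 8 reads (*Wt*) and 2 and 5 (KO) for lung and 12 and 22 (*Wt*) and 0 and 14 (KO) for spleen. Its fall in KO passed edgeR's test in both organs, but in lung it missed the threshold with DESeq2 (adjusted p = 0.058) and without the *Wt* replicate 1 library.

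Downstream, 27 genes of SLAM receptor signaling were examined, from the SRC and TEC kinases through adaptors and VAV exchange factors to phosphatases. In lung KO, 14 were higher, 5 lower and 8 not called (55.6% of all genes were called), and their median log2 fold change was 0.27, beside 0.020 for all genes. In spleen KO, 3 were higher, 17 lower and 7 not called (57.1% of all genes were called), with a median of -0.18. The KO effect differed between the organs for 25 of them (61.6% of all genes), being more positive in lung for 19. With the centred GC offset, 12 were higher among 16 called in lung and 4 among 22 in spleen. Of the 12595 genes tested, 6767 were then called in lung (54.8% of them higher) and 6993 in spleen (47% higher). With the uncentred one, which moved the median of all genes to -0.15 in lung and 0.075 in spleen, 9 were higher among 16 and 5 among 12. Over all genes, 7114 were then called in lung (33.7% of them higher) and 7097 in spleen (60.3% higher).

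The largest changes were in genes with few reads, but genes with more reads also changed. *Dok2*, at 1076 reads or more in every library, had log2 fold changes of 0.61 in lung and -0.73 in spleen, a difference of 1.34. *Plcg2*, at 261 reads or more, had 0.79 and -0.45, a difference of 1.24. *Plcg1*, the phospholipase C gamma 1 gene, held 6 and 4 reads (*Wt*) and 21 and 27 (KO) for lung, and 17 and 15 (*Wt*) and 0 and 1 (KO) for spleen, so no fold is given for spleen. *Dok1*, an inhibitory docking protein gene, went from 7.58 and 7.51 CPM to 22.7 and 16.9 in lung (log2 fold change 1.35, SE 0.18, edgeR adjusted p = 7.9e-08). It went from 19.0 and 16.1 CPM to 7.83 and 10.6 in spleen (-0.74, SE 0.15, edgeR adjusted p = 5.6e-05). *Fyn*, the kinase that SAP recruits, fell in lung from 336 and 349 to 272 and 270 CPM (log2 fold change -0.33, SE 0.05, edgeR adjusted p = 8.3e-08), as did *Lcp2*, the scaffold SLP-76, by 0.31 on the log2 scale. *Vav2*, an exchange factor, fell in spleen by 0.83 on the log2 scale (edgeR adjusted p = 0.017), although its KO libraries at 3.59 and 1.95 CPM differed widely from each other and its *Wt* libraries stood at 3.75 and 3.86. *Cbl*, a ubiquitin ligase, and *Nck1*, an adaptor, rose in spleen (0.41 and 0.40). In the difference of the KO effect, *Nck1* (-0.55), *Cbl* (-0.53) and *Dok1* (2.09) stood at the ends of the list beside *Plcg1*.

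Between organs in *Wt*, 12 of the 27 were lower in lung and 6 higher (57.0% of all genes were called), with *Pik3r1* (0.58) and *Lcp2* (0.40) highest and *Dok1* (-1.18) and *Plcg1* (-1.59) lowest. In KO, 17 were higher in lung and 4 lower (65.6% of all genes were called), with *Arhgef7*, the exchange factor beta-PIX, at 1.33 beside *Plcg1*, and *Nck1* (-0.39) and *Rasa1* (-0.25) at the lower end.

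**Figure D5:**
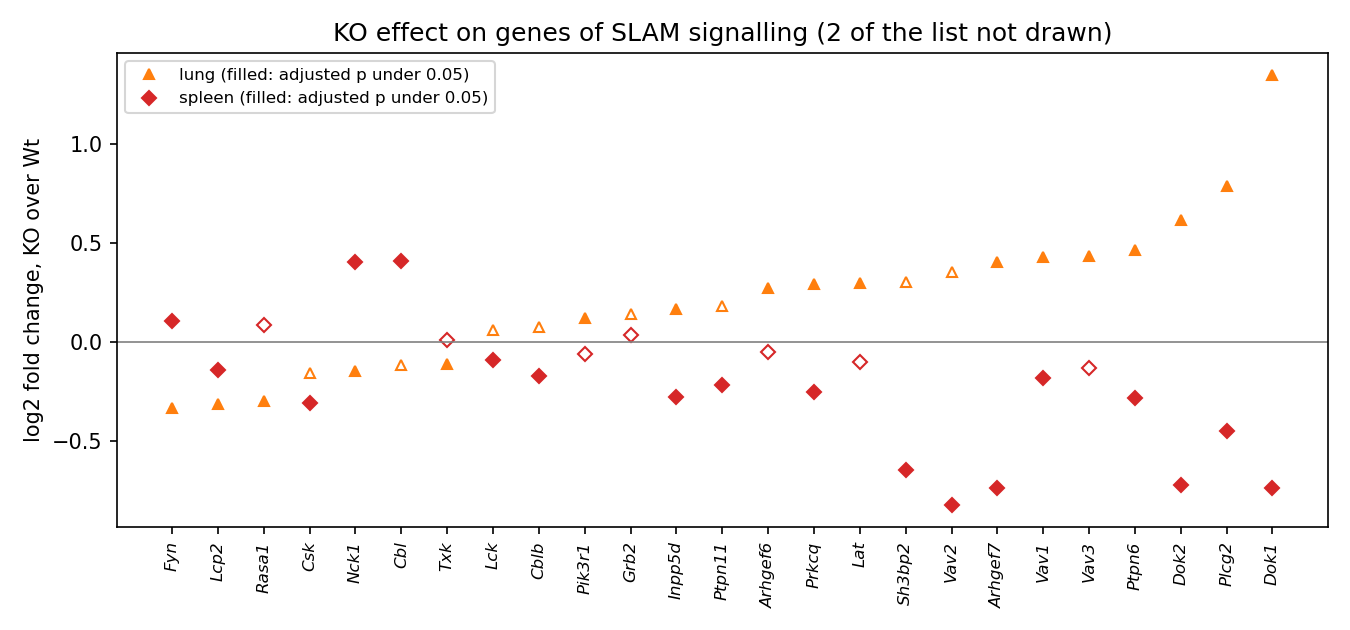
log2 fold change of KO over *Wt* (y) for the SLAM signaling genes (x, ordered by the lung value), in lung (triangles) and spleen (diamonds), filled where called at an adjusted p under 0.05. *Plcg1*, whose spleen KO libraries held 0 and 1 read, is not drawn, nor is a gene of the list that is not reported here; *Dok1* at the right end is at 1.35 in lung and -0.74 in spleen, and *Fyn* at the left end at -0.33 in lung.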

How the data were processed

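Messenger RNA of sorted NK cells was sequenced with 50 bp reads in 8 libraries, grouped by the organ and genotype of their labels. The authors aligned reads to mm10 with HISAT2 (2.1.0) and counted them with HTSeq (0.11.1), per the labels, and deposited raw counts per gene symbol without normalization. Rows that name no gene hold 70.9% to 72.8% of the reads listed (52.7% to 55.0% of uniquely aligned reads met no feature) and were left out.

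Testing used edgeR 4.0.16 (R 4.3.3) with filterByExpr at a minimum count of 10, TMM scaling, a 4-group model and quasi-likelihood tests, adjusted by Benjamini-Hochberg over 12595 genes. CPM per kb divides by the union of GENCODE M21 exons. Equally numbered *Wt* and KO libraries of an organ had deviations that correlated at 0.169 (spleen) and -0.0139 (lung). With only 2 numbers, they were not treated as pairs. Lung and spleen libraries of the same genotype and number were not compared in this way, so a pairing across organs was not checked. Alternatives were DESeq2 1.42.0, other scalings and filters, a replicate block, GC offsets (spline, 5 degrees of freedom), assumed coefficients of variation of 0.1 and 0.2, and leaving out each library. The steps were run on simulated counts with 200 genes changed in lung KO, of which 79.5% were called, while 5.36% of calls were false. These counts were drawn with the common dispersion of these libraries and without a GC trend. Neither a wider spread nor GC dependence was therefore tried.

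The GC offset was computed in 2 forms. The first took its trend from log2 CPM on library totals with the intercept and then applied TMM, so scaling was corrected again and the median of all genes moved (to -0.15 in lung). It was replaced, after its values for the members had been seen, by a form centred on TMM-scaled values, and both are reported.

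The members and gene lists were chosen with earlier results of these data known. All members and relatives are named, and for each member the 2 most like genes. Of the signaling list, the 2 called genes with the largest change in each direction per contrast are named. *Dok2* and *Plcg2* were added to these as genes with more reads. Floors cover counting error only. A few genes of the lists are not reported here by name and enter only list counts and sums.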

Additional observations from a re-analysis of the deposited data

Results flagged for a closer look

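The KO effect differed between lung and spleen (edgeR's quasi-likelihood test of the difference, adjusted over all genes) for 7 members, where 61.6% of all genes tested differed. On the log2 scale, lung minus spleen, the difference was 1.13 for *Slamf6*, 0.66 for *Sh2d2a* and 0.47 for *Ly9*, and it was -1.10 for *Sh2d1b1*, -1.01 for *Sh2d1a*, -0.68 for *Cd84* and -0.34 for *Cd48*. Those of *Slamf6*, *Ly9*, *Sh2d1b1*, *Sh2d1a* and *Cd84* kept their sign and call with both GC offsets, although the centred one moved *Cd84* to -0.27 and *Sh2d1a* to -0.52 and the uncentred one moved *Ly9* to 0.24. With an assumed coefficient of variation of 0.2, *Sh2d1b1* was the only member called, where 16% of all genes tested were.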

How the results depend on the processing

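Log2 fold changes of members were stable under DESeq2, RLE and upper-quartile scaling, the count filters, fits of only the 4 libraries compared and the replicate block, none of which changed a call of a member. Library totals moved the median of all genes to 0.11 in lung and 0.19 in the difference, and moved the higher share of lung calls from 52.5% to 63.3%; the uncentred GC offset lowered it to 33.7%, and in spleen the shares were 49.3%, 41.2% and 60.3%. The narrow spread between libraries decided most calls. With assumed coefficients of variation of 0.1 and 0.2, members called fell to 4 and 1 in lung, 3 and 0 in spleen (where *Sh2d1a* came closest at 0.2, edgeR likelihood ratio adjusted p = 0.054), 3 and 1 for lung against spleen in *Wt*, and 4 and 2 in KO, and to 1 with 0.2 for the difference. Over all genes tested, 34.9% and 12.4% were then called in lung, 32.6% and 9.08% in spleen, 37.1% and 16% between organs in *Wt*, 45.4% and 18.4% in KO, and 16% with 0.2 for the difference. At 0.1, *Slamf6*, *Cd84*, *Sh2d1b1* and *Sh2d2a* remained in lung and *Slamf6*, *Sh2d1a* and *Sh2d1b1* in spleen. For the difference, an assumed 0.1 left 5 members called, beside 42.2% of all genes tested. The signaling genes called fell to 8 and 2 in lung, 10 and 1 in spleen, 12 and 5 for the difference, 7 and 2 between organs in *Wt*, and 12 and 6 in KO. The GC offset left 5 members called in spleen, where 6993 of the 12595 genes tested were called. The uncentred one left 12 signaling genes called there, beside 7097 of all genes tested.

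Signs turned as follows, and the cause was not tested. For *Cd48* in lung, library totals gave 0.023, the GC offset 0.15 and the GC offset with replicate block 0.16. For *Sh2d1a* in lung, the last 2 gave 0.058 and 0.071. For the difference in *Cd48* they gave 0.094 and 0.095, for *Cd48* between organs in *Wt* -0.094 and -0.099, and for *Cd84* between organs in KO 0.072 and 0.070, while the GC offset gave 0.00083 for *Cd48* in KO. The uncentred form, added after the data had been seen, gave 0.074 for *Sh2d2a* in spleen and -0.038 for the difference in *Slamf7*. Library totals gave -0.041 for *Sh2d2a* between organs in *Wt*. Without the lung KO replicate 2 library, the uncalled values of *Sh2d1b2* turned to -0.00370 for the difference and -0.21 between organs in KO, and without the spleen KO replicate 2 library, which leaves 0 reads in that group, they were fitted at 4.95 and 4.76, which depends on the prior count. Leaving out each library in turn leaves 1 library in a group, whose spread then rests on the other groups. Effect sizes are therefore compared, and calls from these fits are weak. No log2 fold change of a member turned sign. That of *Slamf6* in lung ranged from 1.63 to 1.97 and that of *Sh2d1a* in spleen from 0.77 to 0.87. The smallest were less stable, as with *Slamf7* in the difference (0.0031 to 0.098) and *Cd48* in lung (-0.11 to -0.032). The calls of members that ended in these fits are named above.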
